A study of Rattus norvegicus with 6 samples.

Results

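A group of 6 mature miRNAs that are made without Drosha or without Dicer was followed in rat cortical neurons treated with brain-derived neurotrophic factor (BDNF), a secreted protein that promotes growth of dendrites. The members are rno-miR-451-5p, rno-miR-320-3p, rno-miR-320-5p, rno-miR-484, rno-miR-877 and rno-miR-1224, chosen by name for the way they are made, and all 6 were among the 649 miRNAs counted. The neurons came from embryonic day 18 Sprague-Dawley rats, were dissociated, and were grown as a primary culture for 7 days in vitro according to the labels, whereas a legend of the study gives 6 days. 3 Control libraries were made from neurons that received the vehicle, 0.1% BSA, for 20 min, and 3 BDNF libraries from neurons that received 100 ng/ml BDNF for the same time. Each library holds small RNA of a whole culture, which was treated with fluorodeoxyuridine and uridine to stop division of non-neuronal cells. The study asked whether a brief BDNF stimulus affects how miRNAs are made, with a view to the binding of TRBP to Dicer. MiRNAs that skip an enzyme of the usual route are described here on that question.

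Most miRNAs are cut from a primary transcript by Drosha in the nucleus and then from the pre-miRNA hairpin by Dicer, which works with the co-factor TRBP, in the cytoplasm. Some miRNAs skip one of these cuts. The pre-miR-451 hairpin is too short for Dicer and is cut by Argonaute 2 instead, after which its end is trimmed. MiR-320 and miR-484 come from short transcripts made directly by RNA polymerase II, so that Drosha is not needed, and their precursors are still cut by Dicer. The pre-miR-320 carries the cap of its transcript at the 5′ end, and its 3′ arm is the one that is loaded onto Argonaute. Mirtrons such as miR-877 and miR-1224 are whole short introns that the spliceosome releases, and the debranched intron is then cut by Dicer. Of the 6 miRNAs, miR-451-5p is thus the one whose production bypasses Dicer.

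The mature sequences are shown for their seeds and because both mirtrons share their first letters. Capitals mark the seed (bases 2 to 8), which pairs with target mRNAs. RefSeq sequences of the rat build GRCr8 matched 4 of the 6 miRNAs by name, and the co-transcribed miR-144-3p is added as a Dicer-dependent miRNA of the same primary transcript as miR-451.
rno-miR-451-5p: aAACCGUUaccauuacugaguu
rno-miR-484: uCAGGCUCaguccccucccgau
rno-miR-877: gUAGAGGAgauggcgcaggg
rno-miR-1224: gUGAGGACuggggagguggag
rno-miR-144-3p: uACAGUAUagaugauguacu
These 5 seeds all differed from each other. Only the seed of miR-484 was found in other rat miRNAs of the table, rno-miR-344-5p and rno-miR-344a-5p, and the latter had between 0 and 3 reads per library. Both mirtrons begin with GU, the letters at the start of an intron, as did 2.89% of the 693 mature miRNAs of the table. Their GC content was 65.0% for miR-877 and 66.7% for miR-1224, against 36.4% for miR-451-5p and 63.6% for miR-484.

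The hairpins are shown for the stem of Mir451a and the ends of the mirtrons, with the mature miRNA in capitals.
Mir451a, chr10:63459569-63459640, plus strand: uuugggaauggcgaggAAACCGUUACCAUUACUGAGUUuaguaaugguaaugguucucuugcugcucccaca
Mir877, chr20:2816284-2816368, plus strand: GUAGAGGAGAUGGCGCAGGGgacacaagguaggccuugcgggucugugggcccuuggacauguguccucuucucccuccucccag
Mir1224, chr11:93811291-93811375, minus strand: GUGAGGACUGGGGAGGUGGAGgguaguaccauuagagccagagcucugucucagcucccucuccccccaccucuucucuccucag
Mir484, chr10:1394905-1394981, minus strand: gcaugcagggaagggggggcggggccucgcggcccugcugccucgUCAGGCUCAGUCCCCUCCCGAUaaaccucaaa
In the predicted fold of the Mir451a hairpin, 17 base pairs without a break were closed by a loop of 4 bases, and miR-451-5p covered all 4 of the loop bases. The longest unbroken stem had a median of 10 base pairs over the 419 rat hairpins of the table, and 29 of them (6.92%) reached the 17 of Mir451a. The annotated arms of Mir451a lie 5 bases apart, against a median of 16 over the 263 hairpins with both arms, and 2 hairpins, Mir451a included, had arms that close. The Mir144 hairpin, whose arms lie 14 bases apart, ends 89 bases upstream of Mir451a on the same strand.

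MiR-877 and miR-1224 each start at the first base of their hairpin, which both begins with GU and ends with AG, the letters at the end of an intron. This combination of GU at the 5′ end and AG at the 3′ end was found in 4 of the 419 hairpins (0.955%), with Mir3595 and Mir678 as the other two. In the annotation Mir877 lies within Abcf1 and Mir1224 within Vwa5b2, whereas Mir451a and Mir484 overlap no other gene. The nearest protein-coding gene is Marf1 for Mir484, Polr3d for Mir320a and Eral1 for Mir451a.

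The 6 miRNAs spanned 3 orders of magnitude in the Control libraries. The total count per library ranged from 10374120 to 12533029, and levels are given as normalized RPM (reads per 1000000 reads), which are counts divided by the library total and by a normalization factor for composition. The neuronal miRNAs miR-9a-5p, miR-128-3p and miR-124-3p, fixed as markers of cortical neurons, together held between 309501 and 443830 normalized RPM in every library. Most of this sum was miR-9a-5p, which averaged 285547 normalized RPM in Control, against 78594 for miR-128-3p and 5074 for miR-124-3p. MiRNA levels also depend on how well each sequence is ligated in library preparation, so the order of levels describes reads and not molecules. MiR-320-3p ranked at position 69 of 649 in Control and miR-484 at 162. MiR-877 ranked at 307, miR-1224 at 386, miR-451-5p at 395 and miR-320-5p at 468. All 3 neighbouring steps from miR-320-3p down to miR-1224 were larger than the spread, with a 6.39-fold step to miR-484, a 9.54-fold step to miR-877 and a 4.35-fold step to miR-1224. The neighbours miR-1224 and miR-451-5p did not differ beyond their spread, at 3.99 ± 0.71 and 3.53 ± 0.67 normalized RPM in Control (SD, n = 3). Together the 6 miRNAs took between 0.107% and 0.150% of all counts, and miR-320-3p alone gave 81.2% to 87.2% of their reads.

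**Figure D1:**
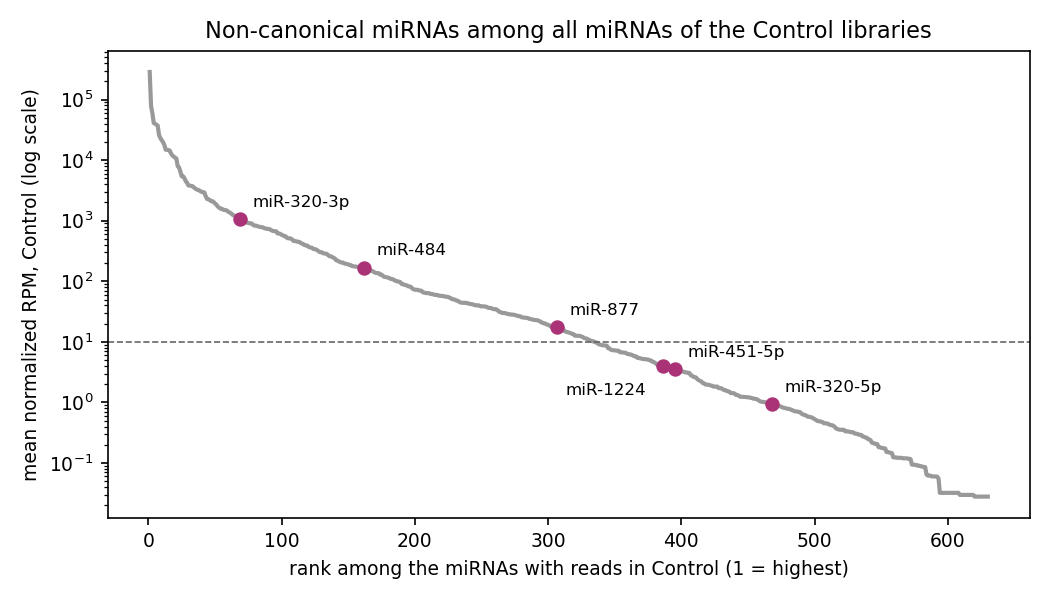
Mean normalized RPM in the 3 Control libraries (log scale) against rank, for all miRNAs with reads in Control (grey line) and the 6 non-canonical miRNAs (points); the dashed line marks 10 RPM. MiR-320-3p, miR-484 and miR-877 lie above the line at ranks 69, 162 and 307, and miR-1224, miR-451-5p and miR-320-5p lie below it.

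The study considered miRNAs with at least 10 RPM in one of the conditions. This was taken as the mean of a condition, and 336 miRNAs passed, among them miR-320-3p, miR-484 and miR-877. The other 3 did not pass, and their values come from a fit of all 649 miRNAs without the filter. In the quasi-likelihood test of edgeR, unadjusted P-values stayed above 0.05 for all 6. Of the 336 miRNAs tested, 2.98% had an unadjusted P-value below 0.05, and of the 649 without the filter 2.31%. After Benjamini-Hochberg adjustment 0% of either set passed. Deviations from the group means were shared by Control and BDNF libraries of equal number, and a fit with this number as a block is therefore given too. With the block, 20.5% of the 336 and 13.6% of the 649 had an unadjusted P-value below 0.05, and again none of the 6 did. With adjustment, the block left 0% of the 336 and 3.08% of the 649 below 0.05. The median log2 fold change (BDNF/Control) was 0.01 for the 3 tested members and -0.0015 for all 336 miRNAs tested.

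**Figure D2:**
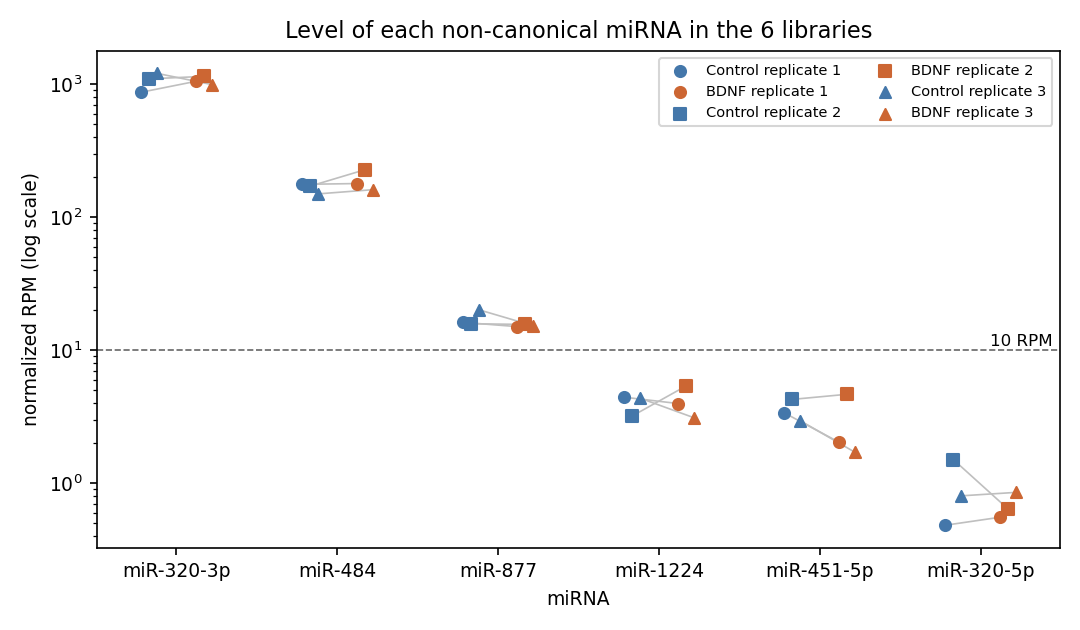
Normalized RPM (log scale) of each miRNA in the 3 Control (blue) and 3 BDNF (orange) libraries, with marker shapes for the replicate number and grey lines joining the same number. The groups overlap for all miRNAs but miR-877, and BDNF replicate 2 is highest for miR-484, miR-1224 and miR-451-5p.

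MiR-320-3p, the capped and Drosha-independent miRNA, was the most abundant of the 6 and did not differ between the conditions beyond its error. It had 871, 1099 and 1209.6 normalized RPM in Control replicates 1 to 3 and 1053, 1148 and 996 in the BDNF replicates. The Control libraries held both the lowest and the highest value, so that the BDNF range lay inside that of Control. Its mean was 1060.0 ± 172.5 (SD, n = 3) for Control and 1066 ± 77 (SD, n = 3) for BDNF. This gave a log2 fold change of 0.01 (standard error, SE, 0.14, unadjusted P = 0.96 and adjusted P = 0.999 in edgeR), with a 95% interval of -0.32 to 0.34. Relative to Control, BDNF levels between 0.799-fold and 1.27-fold were thus within the interval. The ratio of BDNF to Control was 1.21 in replicate 1, 1.04 in replicate 2 and 0.824 in replicate 3, with no common direction. Its change was smaller in size than that of most miRNAs, as only 6.85% of the 336 had a smaller one.

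The 5′ arm of the same precursor gave few reads. MiR-320-5p was read 5, 18 and 9 times in Control and 6, 7 and 11 times in BDNF. The Control range again enclosed that of BDNF, and at these counts the counting error alone is large, with a 95% Poisson interval of 10.7 to 28.4 reads for the highest library and 1.62 to 11.7 for the lowest. Such intervals cover counting error only. Without the filter, the fit gave a log2 fold change of -0.44 (SE 0.47, unadjusted P = 0.37 and adjusted P = 0.9997 in edgeR), with a 95% interval of -1.51 to 0.62. Without Control replicate 2, which held the 18 reads, it was 0.10, so that its direction rested on this library. Between 730 and 1901 reads of the 3′ arm were counted for each read of the 5′ arm.

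In the Control libraries miR-320-3p made up 99.9% of the reads of both arms. Among 181 precursors with both arms listed and a combined level of at least 10 RPM in Control, miR-320 ranked at position 20 for the size of this imbalance, with a log2 ratio of 10.1 against a median of 4.86. The major arm was the 5′ arm in 90 of these precursors and the 3′ arm in 91. The mean log2 3p/5p ratio of miR-320 was 10.21 ± 0.65 (SD, n = 3) for Control and 10.54 ± 0.36 (SD, n = 3) for BDNF, a difference of 0.33 that was within the spread between replicates (two-sided exact permutation test, P = 0.5). With 3 libraries against 3, this test cannot give a P-value below 0.1. The strong imbalance in reads between the arms was thus present in every library of both conditions. It describes reads and not molecules, and the part of the 5′ cap in the few reads of the 5′ arm was not tested.

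**Figure D3:**
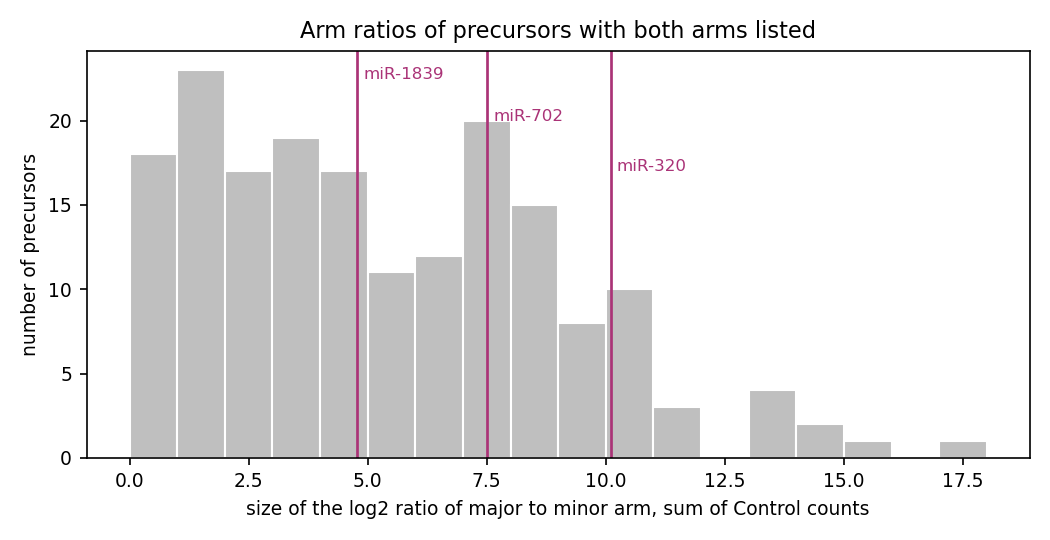
Number of precursors by the size of the log2 ratio of major to minor arm, from the summed counts of the Control libraries, for 181 precursors. Lines mark miR-320 at 10.1, the mirtron miR-702 at 7.51 and the scaRNA-derived miR-1839 at 4.79.

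MiR-484, the other Drosha-independent miRNA, was slightly higher in BDNF by an amount that did not pass the test. It had 177, 171 and 149.9 normalized RPM in Control and 179, 227 and 161 in BDNF. The groups overlapped, and BDNF replicate 2 lay above the other 5 libraries. Control averaged 166 ± 14 (SD, n = 3) and BDNF 189 ± 34 (SD, n = 3). On the log2 scale the fold change was 0.19 (SE 0.16, unadjusted P = 0.27 and adjusted P = 0.999 in edgeR), with a 95% interval of -0.19 to 0.56. With the replicate block it was 0.18 (SE 0.09, unadjusted P = 0.081 and adjusted P = 0.32). Without BDNF replicate 2 it was 0.04, and without Control replicate 3 it was 0.13. The BDNF library was higher in all 3 pairs, with ratios of 1.01, 1.33 and 1.08. The same direction in all 3 pairs was found for 39.9% of the miRNAs tested, and in RPM without the normalization factor miR-484 was higher in only 2 of the 3 pairs.

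MiR-877, the mirtron from Abcf1, was the member whose groups did not overlap. It had 16.2, 15.8 and 20.2 normalized RPM in Control and 15.04, 15.6 and 15.3 in BDNF, so that every BDNF library lay below every Control library. The distance between the nearest libraries of the groups, Control replicate 2 and BDNF replicate 2, was small, and Control replicate 3 stood above the rest. Groups that did not overlap were found for 7.14% of the 336 miRNAs tested, and the exact permutation test gave P = 0.1 (two-sided), the smallest value possible. Control averaged 17.4 ± 2.4 (SD, n = 3) and BDNF 15.3 ± 0.3 (SD, n = 3), which gave a log2 fold change of -0.18 (SE 0.14, unadjusted P = 0.22 and adjusted P = 0.999 in edgeR), with a 95% interval of -0.51 to 0.14.

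The separation of the miR-877 libraries depended on the normalization. In RPM without the factor the Control libraries had 16.1, 15.1 and 21.8 and the BDNF libraries 13.95, 15.2 and 16.6. These ranges overlapped, and miR-877 was then lower in BDNF in 2 of the 3 pairs and not in all 3. Without Control replicate 3 the log2 fold change was -0.05, against -0.18 with it. With the replicate block it was -0.18 (SE 0.11, unadjusted P = 0.14 and adjusted P = 0.44 in edgeR). The reads of this miRNA numbered 163 to 226 per library.

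MiR-1224, the mirtron from Vwa5b2, was below the filter and had overlapping levels in both conditions. It was read 46, 38 and 49 times in Control and 43, 59 and 40 times in BDNF, which gave 4.44, 3.18 and 4.37 normalized RPM in Control and 3.97, 5.39 and 3.10 in BDNF. In normalized RPM, BDNF replicate 2 was the highest library and BDNF replicate 3 the lowest, so that the BDNF range enclosed that of Control. In RPM without the factor Control replicate 2 was the lowest, at 3.03 against 3.36 in BDNF replicate 3. The log2 fold change of miR-1224 without the filter was 0.06 (SE 0.25, unadjusted P = 0.83 and adjusted P = 0.9997 in edgeR), with a 95% interval of -0.52 to 0.63. Its sign depended on single libraries, with -0.16 without BDNF replicate 2 and -0.08 without Control replicate 2. The mirtrons thus gave point estimates of opposite sign, neither of which passed the test, and the difference between them was not tested.

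MiR-451-5p, made by Argonaute 2 without Dicer, is best known from red blood cells. It was read 35, 51 and 33 times in Control and 22, 51 and 22 times in BDNF, and its levels were 3.38, 4.27 and 2.94 normalized RPM in Control and 2.03, 4.66 and 1.70 in BDNF. BDNF replicates 1 and 3 were the lowest of the 6 libraries, and BDNF replicate 2 was the highest. The 95% Poisson interval of BDNF replicate 2, 3.37 to 5.95 RPM, did not overlap those of BDNF replicate 1, 1.18 to 2.85 RPM, and BDNF replicate 3, 1.16 to 2.80 RPM, so the BDNF libraries differed from each other by more than counting error. Its log2 fold change without the filter was -0.34 (SE 0.37, unadjusted P = 0.38 and adjusted P = 0.9997 in edgeR), with a 95% interval of -1.19 to 0.50. With the replicate block it was -0.36 (SE 0.23, unadjusted P = 0.13 and adjusted P = 0.60), and the ratios of BDNF to Control were 0.601, 1.09 and 0.579.

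Single libraries decided the size of the miR-451-5p value. Without BDNF replicate 2 its log2 fold change was -0.89 (SE 0.28, unadjusted P = 0.013 and adjusted P = 0.999 in edgeR). Without BDNF replicate 3 it was -0.08, without BDNF replicate 1 -0.14 and without Control replicate 2 -0.17. With all 6 libraries, BDNF levels between 0.439-fold and 1.41-fold of Control were within the 95% interval.

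MiR-144, which lies on the same primary transcript and needs both Drosha and Dicer, was rarer still. MiR-144-3p was read 18, 12 and 9 times in Control and 13, 23 and 10 times in BDNF. BDNF replicate 2 was the highest library for miR-144-3p, as it was for miR-451-5p and for miR-144-5p. For miR-144-3p the log2 fold change was 0.20 (SE 0.45, unadjusted P = 0.66 in edgeR without the filter). The log2 ratio of miR-451-5p to miR-144-3p needs no normalization, as both counts come from the same library. It was 0.94, 2.04 and 1.82 in Control and 0.74, 1.13 and 1.10 in BDNF, with a mean of 1.60 ± 0.58 (SD, n = 3) against 0.99 ± 0.22 (SD, n = 3). The ranges overlapped, because Control replicate 1 fell among the BDNF libraries. The difference of -0.61 did not pass the two-sided exact permutation test (P = 0.3). It was below 0 in all 3 pairs, with -0.20, -0.91 and -0.72, and 3 pairs cannot give a P-value below 0.25 (sign permutation, P = 0.25). Without Control replicate 1, the library that fell among the BDNF values, the difference was -0.94. The exact test then gave P = 0.1, the smallest value possible with 2 libraries against 3. Leaving out any other single library gave differences from -0.68 to -0.39, with P from 0.3 to 0.4 in the exact test.

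**Figure D4:**
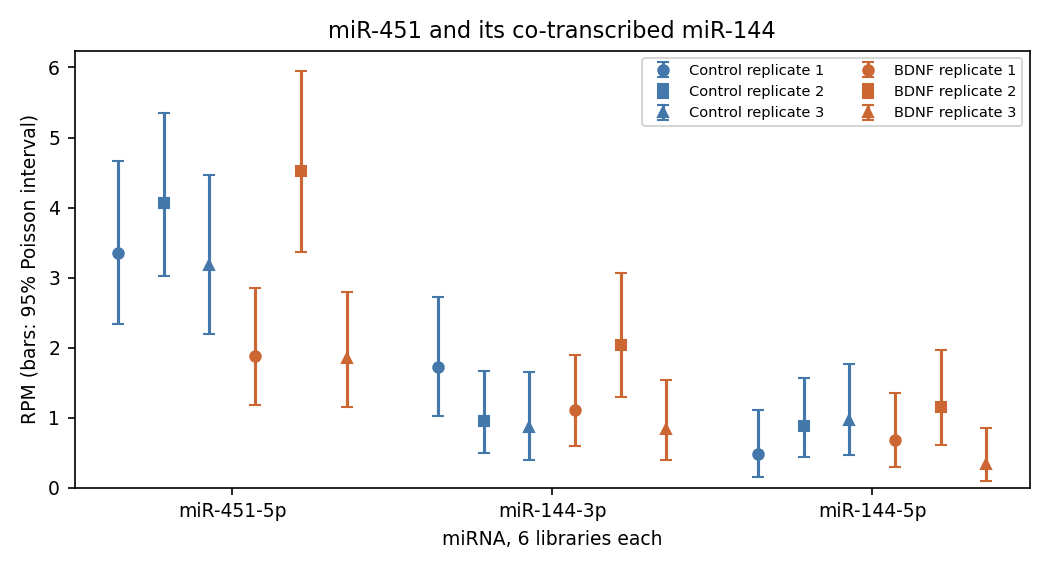
RPM of miR-451-5p, miR-144-3p and miR-144-5p in the 3 Control (blue) and 3 BDNF (orange) libraries, with 95% Poisson intervals as bars. BDNF replicate 2 is the highest library for each of the 3 miRNAs, at 4.52 RPM for miR-451-5p, and all other values lie below it.

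In bulk RNA, fewer cells of a type and less of the miRNA per cell cannot be told apart. Of the 4 miRNAs fixed as markers of red blood cells, all were listed. Of these miR-451-5p, miR-144-3p and miR-144-5p lay under 5 normalized RPM in every library, while miR-486 averaged 420 ± 19 (SD, n = 3) for Control and 437 ± 12 (SD, n = 3) for BDNF. The list summed to between 409 and 446 normalized RPM in Control and between 435 and 453 in BDNF. The markers of white blood cells, of which 3 of 4 were listed, summed to between 2.26 and 3.47 normalized RPM over all libraries. The 2 markers of vessel endothelium summed to 79.3 to 101.6 in Control and 73.9 to 105.2 in BDNF, and the 4 of glia to 5196 to 7381 in Control and 5211 to 8117 in BDNF. Nearly all of the glia sum was miR-21-5p, which averaged 6472 normalized RPM in Control. The other glia markers averaged 24.0 (miR-219a-5p), 14.8 (miR-146a-5p) and 8.76 (miR-338-3p). Without the block none of the marker miRNAs past the filter had an unadjusted P-value below 0.05 in edgeR, against 2.98% of all tested miRNAs. With the block only miR-126a-5p of the endothelium did, against 20.5% of all tested miRNAs. For miR-126a-5p the block gave a log2 fold change of -0.26 (adjusted P = 0.18 in edgeR). The part of such cells in the level of miR-451-5p was not tested.

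The other miRNAs known for a non-canonical route were described in the same way, from a list of 7 mature miRNAs of which all were listed and 4 passed the filter. The mirtron miR-702-3p, whose hairpin lies within Plod3, averaged 57.7 ± 11.3 normalized RPM (SD, n = 3) for Control and 67.6 ± 5.0 (SD, n = 3) for BDNF, with a log2 fold change of 0.23 (SE 0.17, unadjusted P = 0.22 in edgeR). MiR-664-3p, cut from a small nucleolar RNA, averaged 136 ± 17 (SD, n = 3) for Control and 118 ± 3 (SD, n = 3) for BDNF, with a log2 fold change of -0.20 (SE 0.13, unadjusted P = 0.17). With the replicate block its unadjusted P-value was 0.044 and its adjusted P-value 0.23. It was lower in all 3 pairs, and the same direction in all 3 was found for 39.9% of the miRNAs tested. The groups of miR-664-3p overlapped (two-sided exact permutation test, P = 0.3). MiR-1839-5p and miR-1839-3p, from the small Cajal body RNA Scarna15, had log2 fold changes of -0.14 and -0.06. None of the 4 had an unadjusted P-value below 0.05 without the block, and 1 did with it, against the 20.5% of all tested miRNAs given above. Their median log2 fold change was -0.10.

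**Figure D5:**
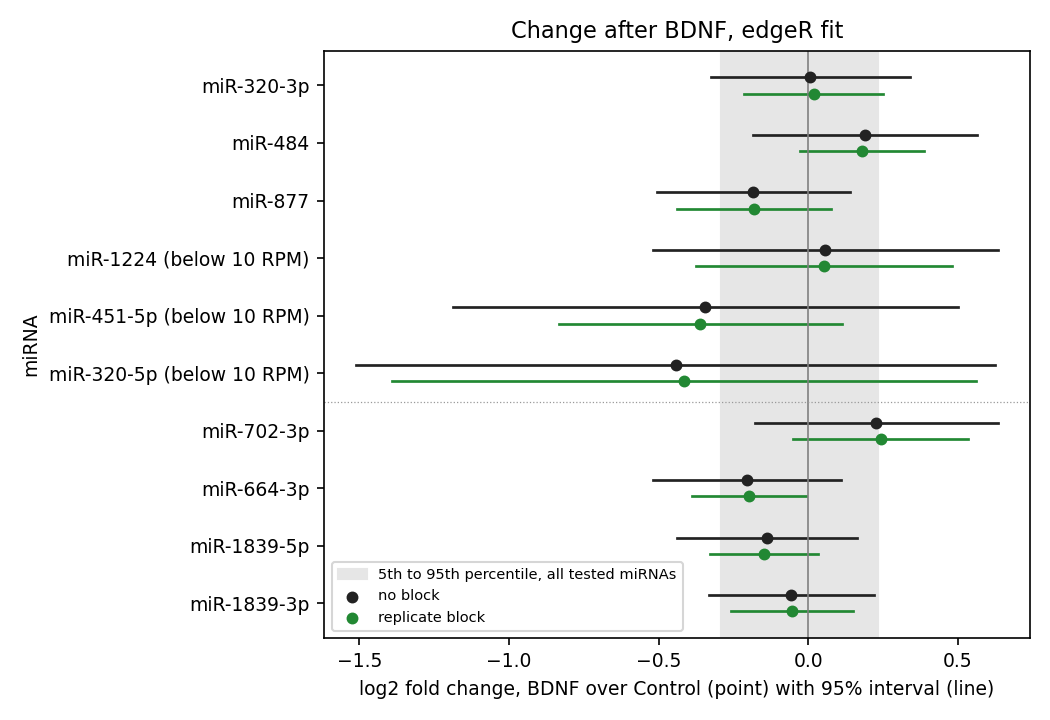
Log2 fold change (BDNF over Control) with its 95% interval from edgeR, without a block (black) and with the replicate block (green), for the 6 members (above the dotted line) and the other 4 non-canonical miRNAs past the filter; the grey band holds the 5th to 95th percentile of all 336 tested miRNAs, -0.29 to 0.23. All intervals include 0 except that of miR-664-3p with the block, and they are widest for miR-320-5p and miR-451-5p.

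For scale, miR-16-5p, the Drosha- and Dicer-dependent miRNA that the study followed, had a log2 fold change of -0.41 in the same fit. Its SE was 0.11 (unadjusted P = 0.0065 and adjusted P = 0.999 in edgeR), with a 95% interval of -0.66 to -0.16. The study reported it as the miRNA lowered with most significance in this sequencing, so its value was picked from these same libraries. Without the block, the 95% intervals of miR-320-3p and miR-484 did not reach -0.41, and those of miR-877, miR-1224, miR-451-5p and miR-320-5p included it. The interval of miR-16-5p without the block overlapped those of all 6. With the replicate block, where miR-16-5p was again at -0.41, the interval of miR-1224 (-0.37 to 0.48) no longer reached it, and those of miR-877, miR-451-5p and miR-320-5p still did. The interval of miR-16-5p with the block was -0.617 to -0.205. That of miR-484, -0.028 to 0.386, no longer overlapped it, and those of the other members still did. The difference of any of the 6 from miR-16-5p was not tested. The standard error of the log2 fold change was 0.14 to 0.16 for the 3 members past the filter, close to the median of 0.15 over all tested miRNAs, and 0.25 to 0.47 for the 3 below it.

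The correlations between the 3 members past the filter differed in size and sign over the 6 libraries, and they were not tested. Pearson's r of the log2 normalized RPM was 0.03 between miR-320-3p and miR-484, 0.47 between miR-320-3p and miR-877 and -0.52 between miR-484 and miR-877. The tested miRNAs most like miR-320-3p over the 6 libraries were miR-382-5p (r = 0.93), miR-130b-3p (r = 0.91) and let-7d-5p (r = 0.91). For miR-484 they were let-7a-1-3p, let-7c-2-3p and miR-96-5p, each with r = 0.89. MiR-877 was most like miR-30d-5p (r = 0.97), miR-103-3p (r = 0.94) and miR-1839-3p (r = 0.94), the last of which also comes from a non-canonical precursor. These correlations are descriptions over 6 libraries that share composition and replicate numbers, and the highest values over all tested miRNAs were taken.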

How the data were processed

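Per the labels and the study's methods, adapters, reads of low quality and reads under 15 nucleotides were removed by the authors. The remaining reads were matched to miRBase v21 rat miRNAs with Miraligner, which allows 1 mismatch and shifts of up to 3 nucleotides at the ends. The deposited values are raw read counts for 649 mature miRNAs in each of 6 samples, without normalization. Tool versions and the handling of reads matching several miRNAs are not given in the sources used here.

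Counts were fitted with edgeR 4.0.16 in R 4.3.3 (TMM factors, library size as the sum of all counts, quasi-likelihood test, condition only) over the 336 miRNAs averaging 10 RPM or more in a condition. Members below this come from the same fit of all 649. P-values were adjusted by Benjamini-Hochberg over all miRNAs fitted. The standard error is the log2 fold change divided by the square root of F. Count ratios used a pseudocount of 0.5 and exact permutation tests. Hairpins were folded with RNAfold (ViennaRNA 2.7.2). The titles number the samples 1 to 3 in each condition, and the study speaks of independent experiments. Deviations from the group means correlated at 0.49 to 0.89 between equally numbered samples, which were thus taken as pairs in the fit with a block. Replicates of a condition differed by far more than sampling noise (chi-square per degree of freedom of at least 160.5).

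The alternatives were the replicate block, DESeq2 1.42.0, limma-voom (limma 3.58.1), other normalizations, filters and pseudocounts, and leaving out each sample. Named miRNAs are the 6 members, miR-144, 7 other miRNAs known as non-canonical, marker miRNAs of cell types, miRNAs sharing a seed with a member, miR-16-5p and, for each member past the filter, the 3 miRNAs with the highest correlation. The members and lists were chosen with earlier results of these data known.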

Additional observations from a re-analysis of the deposited data

How the results depend on the processing

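Neither with nor without the replicate block did a member pass, and the block changed no call of a member. The number of miRNAs with an unadjusted P-value below 0.05, 10 in the fit without a block, was 69 with the replicate block, 6 with library size only, 6 with a filter of 50 RPM and from 3 to 32 when single samples were left out. The number with an adjusted P-value below 0.05 was 0 in edgeR, DESeq2 and limma-voom over the 336 miRNAs, and from 0 to 0 when samples were left out. DESeq2 called 12 and limma-voom 11 at the unadjusted threshold. The log2 fold change of miR-320-3p turned to -0.023 with library size only. When single samples were left out it ranged from -0.088 to 0.12 for miR-320-3p, from 0.04 to 0.29 for miR-484, from -0.25 to -0.05 for miR-877, from -0.16 to 0.23 for miR-1224, from -0.89 to -0.082 for miR-451-5p and from -0.74 to 0.10 for miR-320-5p. The difference in log2 ratio ranged from -0.94 to -0.39 for miR-451-5p to miR-144-3p and from -0.042 to 0.56 for miR-320-3p to miR-320-5p. Of these, miR-320-3p, miR-1224, miR-320-5p and the miR-320 arm ratio changed sign, and miR-451-5p passed the unadjusted threshold only without BDNF replicate 2. The cause was not tested. The filter of 50 RPM gave no value for miR-877, miR-1224, miR-451-5p and miR-320-5p. The last 3 had at most 59 reads in any library, and the part of depth in their wide intervals was not tested.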
